A study of Homo sapiens with 4 samples.

Results

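Inflammasome and pyroptosis genes were followed in MV4-11 cells upon knockdown of CEBPG, a leucine-zipper transcription factor. The 10 genes were taken by symbol from the deposited expression table of 16490 genes, and all 10 were listed: the sensors NLRP3, NLRC4, AIM2 and CARD8, the adaptor PYCARD, the caspases CASP1 and CASP4, the cytokines IL1B and IL18, and the gasdermin GSDMD. MV4-11 is a human AML cell line that carries an MLL fusion and an internal tandem duplication of FLT3. Hairpins were delivered to the cells by pLKO.1 lentivirus with puromycin selection, the control hairpin sh-NC to one group (CEBPG presence, the control, 2 libraries) and sh-CEBPG#3 to the other (CEBPG knockdown, 2 libraries). Only 1 CEBPG hairpin was sequenced, so an effect of the hairpin itself and an effect of losing CEBPG cannot be told apart, and whether replicates stem from separate infections is not stated in the sources used here.

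An inflammasome is a protein platform that assembles in the cytosol of myeloid cells when a sensor meets a microbial or danger signal. The sensor recruits the adaptor ASC, the product of PYCARD, which gathers caspase-1 so that it cuts itself into its active form. Caspase-1 then cleaves the precursors of IL-1 beta and IL-18, and it cleaves gasdermin D, whose fragment opens pores in the plasma membrane. The lytic death that follows is called pyroptosis, and caspase-4 can start it directly upon sensing bacterial lipopolysaccharide. In resting monocytes IL1B and NLRP3 are usually kept low and are induced by a priming signal, while most of the pathway is controlled after translation, which mRNA levels do not show.

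Expression was given as FPKM (sequenced fragments divided by exon length and by the mapped reads of the library), a scale per length on which genes can be compared, and the values of a gene's RefSeq transcripts were summed in each library. FPKM values carry no read counts, so the depth is unknown and no counting interval is given. The libraries correlated at r of at least 0.993 within a group and between 0.962 and 0.964 across groups, over the log2(FPKM + 1) values of 12142 genes that averaged 0.5 FPKM or more and were tested. CEBPG itself averaged 32.0 ± 2.23 FPKM in control cells and 18.2 ± 1.53 FPKM upon knockdown (SD, n = 2 each), so the targeted gene matched the labels. All 7 genes taken as blast markers (CD33, FLT3, HOXA9, MEIS1, MPO, SPI1 and LYZ) were present, and none of the 4 T cell or 4 erythroid markers was listed. Of 4 B cell markers 3 were listed, the highest being CD79A with 0.707 to 1.33 FPKM. Of 3 fibroblast markers COL1A1 and PDGFRB were listed, at no more than 0.0781 FPKM, and of 3 epithelial markers KRT18 was listed, at 8.57 to 10.6 FPKM.

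Of the 10 genes, 8 reached the mean of 0.5 FPKM and were tested with limma. At a Benjamini-Hochberg adjusted p under 0.05, IL1B, CASP1 and PYCARD were higher in sh-CEBPG#3 cells, NLRP3 was lower, and CARD8, CASP4, IL18 and GSDMD were not called. Over all genes tested, 18.5% were called higher and 23.8% lower, so that 42.2% were called in either direction, and 4 of 8 is close to that share. The study's threshold was an unadjusted p under 0.05 with a more than 2-fold difference. The study set it on DESeq2 results, while here it was put on limma fold changes of log2(FPKM + 1). The added 1 shrinks the folds of low genes. Under this threshold IL1B alone passed, where 2.36% of all genes tested passed as higher and 1.05% as lower. The median log2 fold change of the 8 genes was 0.11, against -0.038 over all genes tested. The groups did not overlap for 4 of the 8 as higher and for 2 as lower, where 31.5% and 40.2% of all genes tested did so, or 71.7% in either direction.

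**Figure D1:**
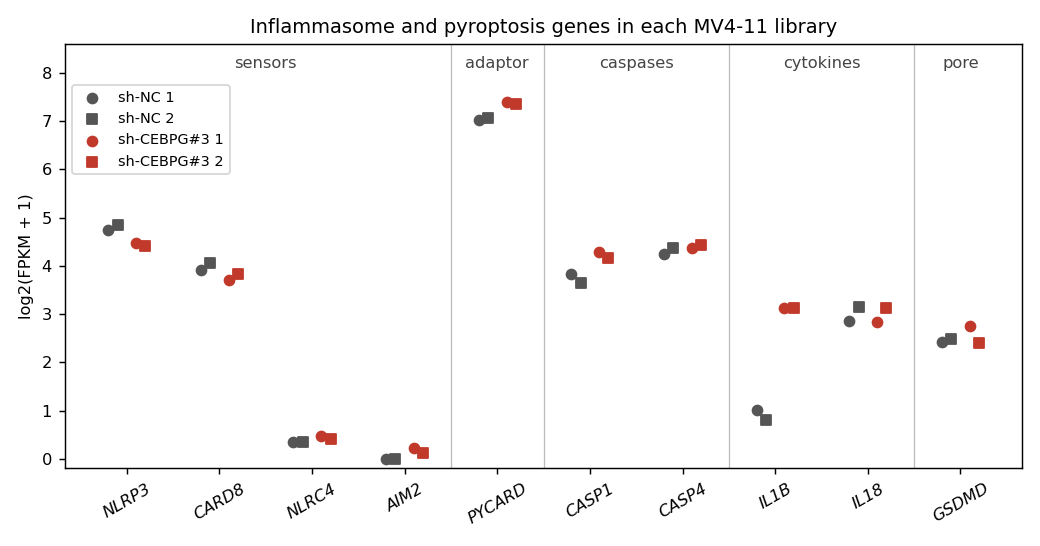
Level of each of the 10 genes on the log2(FPKM + 1) scale, 1 point per library (grey, sh-NC, and red, sh-CEBPG#3, with circles for replicate 1 and squares for replicate 2), ordered by role. IL1B shows the widest gap between the groups, from 0.742 and 1.02 FPKM in sh-NC libraries to 7.75 and 7.76 FPKM in sh-CEBPG#3 libraries, while the points of IL18 and GSDMD interleave.

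Of the genes that rose, IL1B and PYCARD have an entry among the RefSeq promoters of GRCh38.p14, in which 7 of the 10 genes matched. Their 250 bases before the transcription start are shown so that the letters recognised by C/EBP and STAT factors can be seen in place. In capitals stand matches, on either strand, to TTGCNNAA, a short form of the C/EBP motif, and to TTCNNNGAA, the core of the gamma-activated site of STAT factors. The window of IL1B is chr2:112836780-112837029 and that of PYCARD is chr16:31202761-31203010, both on the minus strand and read 5′ to 3′ along the gene.
IL1B: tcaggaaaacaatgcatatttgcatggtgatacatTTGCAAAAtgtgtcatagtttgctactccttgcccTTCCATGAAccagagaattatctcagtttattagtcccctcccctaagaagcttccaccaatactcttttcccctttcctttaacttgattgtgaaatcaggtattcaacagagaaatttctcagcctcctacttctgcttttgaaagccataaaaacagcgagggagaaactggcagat
PYCARD: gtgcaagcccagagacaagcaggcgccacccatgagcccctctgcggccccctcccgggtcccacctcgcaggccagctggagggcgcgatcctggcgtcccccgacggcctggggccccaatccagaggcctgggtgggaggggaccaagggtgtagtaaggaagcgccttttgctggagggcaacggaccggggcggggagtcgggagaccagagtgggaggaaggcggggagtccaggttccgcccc

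The IL1B window held 1 match to the C/EBP form, which began at -215 from the start, and 1 match to the STAT form, which began at -180, and these did not overlap. The PYCARD window held neither. NLRC4, which was below the level tested, also held the C/EBP form in a window. CARD8, which was not called, also held the STAT form in a window. Among the 35116 promoter windows of the table, 9.05% held the C/EBP form and 6.57% the STAT form, so a match is not rare. The core of the interferon-stimulated response element, GAAA repeated after a gap of 2 bases, was also searched on either strand. Of the 13 windows of the 7 genes, 3 held it, in AIM2 and CARD8, where 3.02% of all windows did. The CARD8 matches are the same site in overlapping windows, and genes with more windows have more chances of a match. TGATGNAAT, the composite element of C/EBP and ATF factors, was found in no window of the 7 genes and in 0.888% of all windows. These are matches of letters, with no measurement of binding.

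IL1B, which encodes the precursor of IL-1 beta, the fever-inducing cytokine matured by caspase-1, measured 1.02 and 0.742 FPKM in the 2 control libraries and 7.76 and 7.75 FPKM after knockdown. Both knockdown libraries were far above both control libraries, at 879% of the control mean. The means were 0.882 ± 0.198 FPKM and 7.76 ± 0.00366 FPKM (SD, n = 2 each). The log2 fold change was 2.22 (SE 0.11, adjusted p = 4.61e-07 in limma), the 35th largest increase among the 12142 genes. As the control level is low, the pseudocount matters, and with 0.01 in place of 1 the log2 fold change of IL1B was 3.14. IL1B is listed by 1 transcript, and no other gene annotated in GENCODE shares its exons.

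IL18, which encodes the other cytokine precursor that caspase-1 cleaves, was at 6.22 and 7.87 FPKM in control cells and at 6.15 and 7.74 FPKM in knockdown cells. The groups overlapped, and the log2 fold change was -0.018 with a 95% interval from -0.30 to 0.27 (adjusted p = 0.923 in limma). A change of more than 0.30 on the log2 scale in either direction lay outside this interval. The ratio of IL18 to IL1B in FPKM was 6.09 and 10.6 in sh-NC libraries and 0.793 and 0.998 in sh-CEBPG#3 libraries. IL1B thus went from the 8th to the 6th place by level among the 10 genes and stood next to IL18. Its lower sh-CEBPG#3 library, at 7.75 FPKM, was barely above the higher sh-CEBPG#3 library of IL18, at 7.74 FPKM.

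PYCARD, the gene of the adaptor ASC, was the most abundant of the 10 genes in both groups and lay at the 97.5th percentile of all genes tested by mean level. It stood at 129 and 132 FPKM with sh-NC and at 168 and 162 FPKM with sh-CEBPG#3, with no overlap. The log2 fold change was 0.34 (SE 0.07, adjusted p = 0.00308 in limma), a rise to 126% of the control mean. Without sh-CEBPG#3 replicate 1 the estimate was 0.31 and PYCARD was no longer called, with an SE of 0.12 in place of 0.07. The estimate thus moved little, while the SE was wider with fewer libraries. Both listed transcripts, NM_013258 and NM_145182, were higher in both knockdown libraries, and the second supplied 16.0% and 16.1% of the gene's FPKM in sh-NC libraries and 19.2% and 17.3% in sh-CEBPG#3 libraries. The antisense gene PYCARD-AS1 covers 991 of the 1660 exonic bases of PYCARD on the opposite strand, and reads of both cannot be told apart unless strand was used, which is not stated. PYCARD-AS1 was at 4.38 and 4.33 FPKM in control cells and at 4.41 and 4.999 FPKM in knockdown cells, far below PYCARD.

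CASP1, the gene of caspase-1, measured 13.3 and 11.6 FPKM in the 2 control libraries and 18.5 and 17.0 FPKM after knockdown. The groups did not overlap, and the mean rose to 143% of the control. The log2 fold change was 0.49 (SE 0.09, adjusted p = 0.00206 in limma). The division among its transcripts varied within a group. The transcript NM_033292 supplied 49.2% and 18.1% of CASP1 in the sh-NC libraries, and none of the 4 transcripts tested passed an adjusted p under 0.05 in limma by itself, where 8.24% of the 18624 transcripts tested did. With the most abundant transcript in place of the sum, CASP1 was no longer called (0.33, adjusted p = 0.626 in limma). A part of CASP1, 4.48% of its annotated stretches of 50 bases, also occurs in CARD16, a neighbouring gene that encodes a caspase recruitment domain alone, and the assignment of such reads is uncertain.

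CASP4, which encodes the caspase that binds lipopolysaccharide, was at 18.0 and 19.7 FPKM in control cells and at 19.7 and 20.5 FPKM in knockdown cells. The lower knockdown library was barely above the higher control library, and the log2 fold change of 0.090 had a 95% interval from -0.091 to 0.27 (adjusted p = 0.404 in limma). Its transcript NM_033306, at 0.478 and 1.47 FPKM in sh-NC libraries, is listed at 0 in both sh-CEBPG#3 libraries. The 2 caspase genes lie close to each other on chromosome 11 of GRCh38 (CASP4 from 104942866 to 104968574, CASP1 from 105025443 to 105036686). CASP4 exceeded CASP1 in FPKM in each of the 4 libraries.

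**Figure D2:**
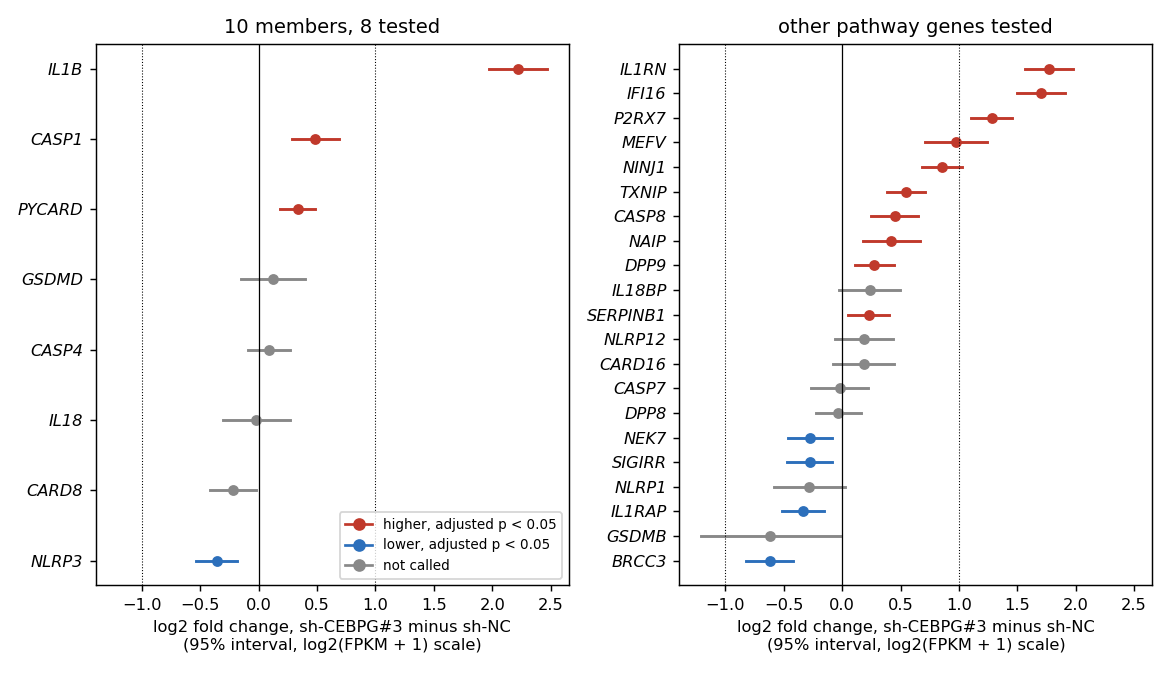
Log2 fold changes of sh-CEBPG#3 against sh-NC cells on the log2(FPKM + 1) scale with 95% intervals from limma, for the 8 of the 10 genes that were tested (left) and for 21 of the 22 other genes of the pathway that were tested (right), where dotted lines mark a log2 fold change of 1 in either direction. IL1B stands at 2.22 while the 7 other members tested lie between -0.36 and 0.49, and on the right IL1RN, IFI16 and P2RX7 lie beyond the dotted line.

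NLRP3, the sensor of potassium efflux and other danger signals, moved the other way. It stood at 25.8 and 27.9 FPKM with sh-NC and at 21.2 and 20.3 FPKM with sh-CEBPG#3. Both knockdown libraries were lower than both control libraries, at 77.2% of the control mean. The log2 fold change was -0.36 (SE 0.08, adjusted p = 0.00512 in limma). NLRP3 was the second gene of the 10 by level in sh-NC cells, and in sh-CEBPG#3 cells its range overlapped that of CASP4. The ratio of PYCARD to NLRP3 in FPKM was 5.02 and 4.73 in sh-NC libraries and 7.95 and 7.99 in sh-CEBPG#3 libraries.

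The 6 listed transcripts of NLRP3 stood in the same order by FPKM in both sh-NC libraries but not in the sh-CEBPG#3 libraries. NM_001079821 supplied 32.5% of the gene's FPKM in one sh-CEBPG#3 library and 1.99% in the other, and NM_183395 was listed at 0 in one library of each group. None of the 6 passed by itself, and with the most abundant transcript, NM_001127462, in place of the sum the log2 fold change was -0.53 (adjusted p = 0.151 in limma). A same-strand lncRNA of the GENCODE annotation, ENSG00000289728, covers 3139 of the 4753 exonic bases of NLRP3, and reads from there cannot be assigned to 1 of these genes.

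CARD8, whose product senses viral protease activity and is held in check by DPP9, measured 14.2 and 15.7 FPKM in the 2 control libraries and 12.1 and 13.2 FPKM after knockdown. The groups did not overlap, but the log2 fold change of -0.22 (95% interval -0.42 to -0.023) had an adjusted p = 0.0694 in limma and was not called. When the libraries were scaled to equal totals the estimate was -0.25 with an adjusted p = 0.0352 in limma, and without sh-NC replicate 1 it was -0.29 with an adjusted p = 0.0269. None of its 8 transcripts tested passed. NM_001184900 led in every library, at between 24.5% and 47.1% of the gene.

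The last pair of sensors was below the level tested. NLRC4, the platform for bacterial flagellin sensed by NAIP, was at 0.274 and 0.282 FPKM in control cells and at 0.390 and 0.326 FPKM in knockdown cells. AIM2, the sensor of cytosolic DNA, is listed at 0 in both sh-NC libraries and reached 0.166 and 0.0926 FPKM after knockdown. With no filter on low values, neither was called (adjusted p = 0.287 for NLRC4 and 0.0583 for AIM2 in limma). No fold change is given for AIM2, since its control level is 0 and the depth is unknown.

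GSDMD, which encodes the pore-forming gasdermin D, stood at 4.36 and 4.58 FPKM with sh-NC and at 5.73 and 4.28 FPKM with sh-CEBPG#3. One knockdown library was above and the other below both controls, and the log2 fold change was 0.12 (95% interval -0.15 to 0.40, adjusted p = 0.444 in limma). The division between its 2 transcripts differed within the knockdown group, as NM_001166237 supplied 2.51% of the gene in one library and 53.2% in the other, against 1.65% and 9.15% in the sh-NC libraries.

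Ordered by level, the 10 genes in sh-NC cells were PYCARD, NLRP3, CASP4, CARD8, CASP1, IL18, GSDMD, IL1B, NLRC4 and AIM2, and no neighbours in this order overlapped between their libraries. In sh-CEBPG#3 cells CASP1 stood above CARD8, and IL1B stood above GSDMD and barely above IL18. The sum of the 4 sensors went from 40.2 and 43.9 FPKM to between 33.8 and 33.9 FPKM, which is mainly NLRP3 and CARD8, while the sum of both cytokines went from between 7.24 and 8.61 FPKM to between 13.9 and 15.5 FPKM.

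The rest of the pathway was examined with 48 further genes in 6 groups, of which 33 were listed and 22 were tested. Of these 22, 10 were higher and 5 lower at an adjusted p under 0.05 in limma, where 18.5% and 23.8% of all genes tested were, and their median log2 fold change was 0.21. By the study's threshold 3 were higher and none lower, where 2.36% and 1.05% of all genes tested were. These 3 were IL1RN, IFI16 and P2RX7, and in each the knockdown libraries lay well above the control libraries. MEFV, at 239% of the control mean in FPKM, and GSDMB, at 45.2%, fell short of it. Their log2 fold changes on the log2(FPKM + 1) scale were 0.97 and -0.61. GSDMB had 1.29 and 1.20 FPKM in sh-NC libraries and 1.11 and 0.0231 FPKM in sh-CEBPG#3 libraries. Its low mean thus rests on the last of these libraries.

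IL1RN, which encodes the antagonist that blocks the IL-1 receptor, measured 7.33 and 7.41 FPKM in the 2 control libraries and 29.9 and 25.4 FPKM after knockdown (log2 fold change 1.77, adjusted p = 6.25e-07 in limma). It thus rose together with IL1B, and stayed above it in every library. The ratio of IL1RN to IL1B in FPKM was 7.17 and 9.98 in sh-NC libraries and 3.85 and 3.28 in sh-CEBPG#3 libraries. IL1A and the other IL-1 family ligands of the list were at or below 0.0613 FPKM or not listed.

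IFI16, a nuclear DNA sensor of the same PYHIN family as AIM2, was at 2.09 and 2.08 FPKM in control cells and at 9.07 and 9.02 FPKM in knockdown cells (log2 fold change 1.70, adjusted p = 8.49e-07 in limma). Of the 5 further sensors tested, 3 were higher and none was lower, beside 18.5% and 23.8% of all genes tested. The 3 were IFI16, MEFV, which encodes pyrin, and NAIP, which has near-identical copies that can share its reads. NLRP1 and NLRP12 were not called. P2RX7, the ATP-gated channel whose potassium efflux triggers NLRP3, stood at 11.4 and 11.9 FPKM with sh-NC and at 30.4 and 29.2 FPKM with sh-CEBPG#3 (log2 fold change 1.28, adjusted p = 1.64e-06 in limma).

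Of the 8 regulators of assembly tested, 4 were higher (P2RX7, TXNIP, DPP9 and SERPINB1) and 2 were lower (NEK7, a kinase that NLRP3 binds to assemble, and BRCC3, which removes ubiquitin from NLRP3), beside 18.5% and 23.8% of all genes tested, so that the share that was lower is close to that of all genes. NEK7 measured 12.6 and 12.9 FPKM in the 2 control libraries and 10.7 and 10.03 FPKM after knockdown. BRCC3 was at 8.91 and 9.74 FPKM in control cells and at 5.56 and 5.86 FPKM in knockdown cells. The log2 fold changes of NEK7 and BRCC3 were -0.27 and -0.62. NEK7 and BRCC3 were singled out after their values were seen, as were MEFV, GSDMB, NAIP, TXNIP, DPP9, SERPINB1, SIGIRR and IL18BP.

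Downstream of the caspases, NINJ1, which ruptures the plasma membrane after gasdermin pores have formed, stood at 22.5 and 23.0 FPKM with sh-NC and at 43.8 and 40.4 FPKM with sh-CEBPG#3 (log2 fold change 0.86, adjusted p = 2.01e-05 in limma). GSDMB was not called, and the remaining gasdermins were below the level tested or not listed. CASP8, the initiator caspase of death receptors, rose to 142% of the control mean (log2 fold change 0.45, adjusted p = 0.00302 in limma). Of the 3 further caspases tested, 1 was higher, 1 lower and 1 not called, beside 18.5% higher and 23.8% lower of all genes tested. On the receiving side, IL1RAP, the shared accessory chain of IL-1 receptors, and SIGIRR, an inhibitory member of the family, were lower, with log2 fold changes of -0.34 and -0.28. They were 2 of the 3 receptors and decoys tested, where 23.8% of all genes tested were lower. The remaining gene, IL18BP, was at 127% of the control mean and was not called. IL1R1, the signalling receptor, was not listed, and the IL-18 receptor chains were below the level tested.

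Other expression that moved with these genes was measured alongside. Of 12 interferon-stimulated genes, 10 were tested and 9 were higher, where 18.5% of all genes tested were higher and 23.8% lower. Their summed level went from between 46.3 and 49.4 FPKM in sh-NC libraries to between 734 and 759 FPKM in sh-CEBPG#3 libraries. Of 10 monocyte and macrophage markers, 9 were listed and 6 tested. CSF1R, FCGR1A and CD68 were higher and S100A9 lower, beside the same shares of all genes tested, and ITGAM and S100A8 were not called. Summed levels were between 188 and 216 FPKM in sh-NC and between 251 and 259 FPKM in sh-CEBPG#3 libraries. Within that sum CD68 went from 44.7 and 54.9 FPKM to 115 and 107 FPKM, and S100A9 from 66.1 and 77.4 FPKM to 43.1 and 44.6 FPKM. CD14, the defining monocyte marker, had 0.187 and 0 FPKM in sh-NC libraries and 1.09 and 0.697 FPKM in sh-CEBPG#3 libraries, and MRC1 was not listed. Of the 7 genes taken as blast markers, 4 were higher (LYZ, MPO, CD33 and SPI1) and 2 were lower (MEIS1 and HOXA9), so they shared no direction. Their summed level went from between 884 and 962 FPKM in sh-NC libraries to between 3365 and 3537 FPKM in sh-CEBPG#3 libraries. Most of that sum was LYZ, the gene of lysozyme, which measured 567 and 610 FPKM in the 2 control libraries and 3126 and 2982 FPKM after knockdown (log2 fold change 2.37, adjusted p = 1.40e-08 in limma). The sum thus follows LYZ and is no measure of blast identity. MEIS1, a homeobox gene that acts with HOXA9, was at 48.0% of the control mean. The part of any of these lists in the rise of IL1B, CASP1 and PYCARD was not tested. In bulk RNA, fewer cells of a type and less RNA per cell cannot be told apart.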

How the data were processed

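RNA of MV4-11 cells was sequenced in 2 sh-NC and 2 sh-CEBPG#3 libraries. The authors cleaned the reads, aligned these with HISAT2 2.0.5 to hg38 (per the labels) and deposited FPKM values, 1 per RefSeq transcript and library. The program that computed the FPKM and the annotation version are not given in the sources used here. Of 28780 transcripts, 199 without a value were left out, and the rest were summed by symbol. Library totals were between 364353 and 389766 FPKM.

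Genes averaging 0.5 FPKM or more over the 4 libraries were tested across all genes on log2(FPKM + 1) with limma 3.58.1 in R 4.3.3 (eBayes with a trend, no block), with Benjamini-Hochberg adjustment over the 12142 genes. No count test was run here, as the values are no counts. An exact two-sided permutation test of 2 against 2 cannot give a p under 0.333, so p-values rest on limma's model of the variance and measure only the spread between these libraries, which may be technical. Low values were checked for steps of whole reads: of 1027 transcripts under 0.06 FPKM in both sh-NC libraries, at most 0.487% shared 1 ratio. The fit was tested on simulated data, with changes larger than those of PYCARD, CASP1 and NLRP3. Whether changes of their size are found was not checked.

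The 10 genes and the gene lists were chosen with earlier results of these data known. Named beside them are other pathway genes called at an adjusted p under 0.05 that differed by more than 1 on the log2 scale, and the gene with the greatest change in each list. Exon overlaps and stretches of 50 bases come from GENCODE v44, coordinates and promoters from RefSeq on GRCh38.p14, read with Python 3.11.15. Promoter matches were counted over the 250 bases before each start. Alternatives were other pseudocounts, filters and scalings, the replicate number as a block, no trend, the most abundant transcript, and each library left out in turn. Some genes of these lists are counted but not reported by name here.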

Additional observations from a re-analysis of the deposited data

How the results depend on the processing

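IL1B was called higher under all 9 alternatives and with each library left out (log2 fold change 2.11 to 3.14). NLRP3 was called lower and CASP1 higher in all of these settings except with the most abundant transcript, and PYCARD was called higher in all except without sh-CEBPG#3 replicate 1. The number of genes called lower among the 10, 1 as reported, was 2 with equal totals and 0 with the most abundant transcript, and 1 to 2 when single libraries were left out. Among the other pathway genes, 5 were lower as reported, 1 with the most abundant transcript and 3 to 5 when single libraries were left out. The median log2 fold change of the members, 0.11 as reported, was 0.12 with pseudocounts of 0.1 and 0.12 with 0.01, 0.084 with equal totals, 0.13 with quantile normalization, 0.045 with the most abundant transcript and 0.062 to 0.18 over the fits without 1 library. Genes that were not called changed sign: GSDMD was -0.23 with the most abundant transcript and -0.051 to 0.30 over the fits without 1 library, and IL18 was 0.021 with quantile normalization and -0.17 to 0.13 over those fits. The cause was not tested. Under the replicate block, 3 of the 10 genes were higher and 1 lower, as without it, and the deviations of libraries with the same number correlated at 0.061 across genes, so the numbers were not taken to pair the libraries. Among the other pathway genes 8 were higher and 4 lower under the block, against 10 and 5. Over all genes, the most abundant transcript gave 1329 higher and 1535 lower calls against 2244 and 2884, and leaving out a library gave 38% to 50% of calls as higher, against 43.8%. The single library that remains in a group is then assumed to vary like the other group. Without counts, low genes such as AIM2 and NLRC4 cannot be weighted by depth.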
